A study of Mus musculus with 3 samples.

Results

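A set of 10 genes of the pancreatic duct and of tumour cell surfaces was followed in newly made RNA of mouse pancreatic cancer cells: Muc1, Tm4sf1, Tm4sf4, Tspan8, Anxa3, Car2, Slc4a4, Cftr, Bicc1 and Ambp. They were taken by name from the deposited gene tables, 10 of 22658 gene models, and 7 of them were measured, meaning a mean of at least 0.5 RPKM (reads scaled by gene model length and library total) over the libraries and a model of at least 300 bp. Bicc1, Cftr and Ambp lay under that mean and are described separately. The study concerned PDX1, a homeodomain factor of pancreas development, in pancreatic ductal adenocarcinoma. All libraries came from the mouse line NB490, selected with puromycin for an shRNA (short hairpin RNA) to PDX1 that doxycycline switches on. There were 3 Bru-seq libraries: uninduced cells (0 h of doxycycline), cells after 48 h of doxycycline, and cells grown out over more than 3 weeks of doxycycline. In Bru-seq, cells take up bromouridine, here 2 mM for 30 min, and the captured RNA reports transcription in that window. Each condition had 1 library, so no difference has a replicate check, no p-value was computed, and every interval covers counting error only. Whether the line is a single clone is not given in the sources used here. Doxycycline-treated cells without this shRNA were not analysed here, so effects of the drug and of the shRNA cannot be told apart. The labels name no uninduced library matched to the grown-out cells in time of culture. Effects of that time and of outgrowth cannot be told apart from those of doxycycline and the shRNA.

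Duct cells of the pancreas secrete bicarbonate-rich fluid. In textbook outline, CFTR releases chloride at the apical surface, carbonic anhydrase supplies bicarbonate inside the cell, and the sodium-bicarbonate cotransporter encoded by Slc4a4 brings it in from the blood side. Mucin-1, the L6 proteins TM4SF1 and TM4SF4, and the tetraspanin TSPAN8 lie in the plasma membrane and are known from carcinoma cell surfaces. Tm4sf1 and Tm4sf4 are neighbours in the genome and encode related proteins that cross the membrane several times.

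The promoters of Tm4sf4, Tm4sf1 and Muc1 are shown because these genes were all lower at 48 h and then parted, Tm4sf4 being much lower still in grown-out cells. Each stretch is the 250 bases before the annotated gene start, 5′ to 3′ on the gene's own strand, from RefSeq in build GRCm38.p6. Capitals mark matches to any of 6 motifs searched on both strands in the 300 base window of 250 bases before and 50 after the start. The homeodomain core was searched as TAATTA. The forkhead motif was searched as TGTTTAC, and the motif of AP-1 factors as TGANTCA, where N is any base. The motif of HNF1 factors was searched as GTTAATNAT. For TEAD factors the letters searched were GGAATG, and the TATA box was searched as TATAAA. The stretch of Tm4sf4 lies at chr3:57425160-57425409 (plus strand), that of Tm4sf1 at chr3:57301989-57302238 (minus strand) and that of Muc1 at chr3:89228806-89229055 (plus strand).
Tm4sf4: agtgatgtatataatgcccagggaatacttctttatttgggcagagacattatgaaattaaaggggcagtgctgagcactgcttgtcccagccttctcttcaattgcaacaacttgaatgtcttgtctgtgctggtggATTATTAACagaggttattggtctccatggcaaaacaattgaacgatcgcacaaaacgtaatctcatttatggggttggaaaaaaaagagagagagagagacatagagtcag
Tm4sf1: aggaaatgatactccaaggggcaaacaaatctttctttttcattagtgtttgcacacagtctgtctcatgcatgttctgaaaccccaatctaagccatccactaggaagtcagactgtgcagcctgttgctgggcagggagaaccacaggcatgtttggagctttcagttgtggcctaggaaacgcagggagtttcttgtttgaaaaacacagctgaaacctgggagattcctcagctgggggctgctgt
Muc1: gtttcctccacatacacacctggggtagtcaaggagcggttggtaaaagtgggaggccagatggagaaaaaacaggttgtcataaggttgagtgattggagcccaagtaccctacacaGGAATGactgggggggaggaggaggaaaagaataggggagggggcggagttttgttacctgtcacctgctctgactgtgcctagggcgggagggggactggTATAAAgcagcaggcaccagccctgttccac

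The Tm4sf4 stretch held 1 match, ATTATTAAC, the HNF1 motif on the reverse strand, beginning 112 bases before the start, and its window also held TATAAA from base 4 after the start, outside the printed stretch. Of 32851 promoter windows in the table, 0.801% held the HNF1 motif and 13.6% TATAAA. The Tm4sf1 window held none of the 6 motifs. The Muc1 stretch held GGAATG beginning 132 bases and TATAAA beginning 31 bases before the start, and 14.7% of all windows held GGAATG. Of the other members' promoters, that of Tspan8 held TGTTTAC 18 bases before the start, a motif in 3.65% of windows, and those of Cftr, Slc4a4 and Ambp held none. TAATTA, present in 5.29% of windows, and TGANTCA, in 7.81%, were in none of the 7 members' promoters in the table. Car2, Anxa3 and Bicc1 are named only. A match is a run of letters and not evidence of binding.

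The libraries held 51006774 reads in uninduced, 48418864 in 48 h and 41632296 in grown-out cells, and Pdx1 itself had 1.59, 1.05 and 1.41 RPKM of nascent RNA in the same order, which does not measure its mRNA or protein. Pdx1 was 1.51-fold lower at 48 h than in uninduced cells (1.28 to 1.77), and the grown-out interval included no change (0.961 to 1.30-fold lower). Of 11 duct markers 8 were measured, with Krt7, Krt8 and Krt18 between 9.61 and 15.1 RPKM in every library, but Epcam (0.0984 RPKM or less), Cldn4 (0.0649 or less) and Sox9 (0.216 or less) were low. The duct marker sum was 158, 90.5 and 88.4 RPKM in uninduced, 48 h and grown-out cells, with Spp1 its highest gene at 98.6, 40.0 and 32.3 RPKM. This sum, which includes the member Muc1, was lower in both doxycycline libraries, mostly through Spp1. Most members were also lower there, and the part of the sum in their values was not tested. None of 11 acinar, 11 endocrine, 9 endothelial or 8 hepatocyte markers was measured. Cpa1, Pnlip, Ins1, Ins2, Gcg, Apoa1 and Fgb had 0 reads in every library. Fibroblast markers summed to 1.37, 1.27 and 1.58 RPKM, nearly all Gsn, and immune markers to 2.42, 1.37 and 1.38 RPKM, nearly all Cd68 and Cd14 (Cd14 1.42, 0.451 and 0.469 RPKM), with Csf1r and Lyz2 at 0. In bulk RNA, fewer cells of a type and less RNA per cell cannot be told apart.

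Tm4sf4, a surface gene of intestine, liver and pancreas whose zebrafish counterpart acts in endocrine pancreas development, showed the largest difference among the measured members. It lies at chromosome 3, 57229332 to 57245597 on the plus strand in the files' coordinates, whose build is unsettled, since hg19, a human build, is the one named per the submitters' processing notes while the models are mouse genes. It had 1.47 RPKM in uninduced cells (95% Poisson interval 1.39 to 1.56, 1221 reads), 0.933 RPKM at 48 h (0.867 to 1.00, 735 reads) and 0.270 RPKM in grown-out cells (0.232 to 0.312, 183 reads). The libraries thus step down without overlap of their intervals. The 48 h level was 1.58-fold lower than uninduced (95% conditional binomial interval 1.44 to 1.73), the grown-out level 5.45-fold lower (4.66 to 6.40). Set against 48 h, the grown-out level was 3.45-fold lower (2.93 to 4.08). Ranked by log2 ratio among 7915 measured genes, Tm4sf4 was the 4th lowest in grown-out against uninduced cells and the 214th lowest at 48 h. These log2 ratios, -0.63 at 48 h and -2.25 in grown-out cells, carry a pseudocount of 0.05 RPKM, which understates changes of low genes.

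Tm4sf1, which encodes the L6 antigen of carcinoma and endothelial cells, differed from its neighbour. It lies at chromosome 3, 57090986 to 57105841 on the minus strand, and had 10.7 RPKM in uninduced (8080 reads), 6.74 at 48 h (4848 reads) and 10.1 in grown-out cells (6245 reads). Its 48 h library was the low one, 1.58-fold below uninduced (1.53 to 1.64). The grown-out level was 1.06-fold lower than uninduced (1.02 to 1.09). Per length, Tm4sf1 was transcribed 7.25 times as much as Tm4sf4 in uninduced cells, 7.22 times at 48 h and 37.4 times in grown-out cells. The pair therefore kept their proportion at 48 h and lost it in grown-out cells, in these libraries.

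None of the 6 nearest models reached the step of Tm4sf4 in grown-out cells. Tm4sf1 lies 123 kb before it. Wwtr1, which encodes the YAP partner TAZ, lies 13.97 kb after it on the other strand and had 3.47, 3.18 and 2.80 RPKM in uninduced, 48 h and grown-out cells. Commd2, 203 kb after it, had 3.03, 2.60 and 2.89 RPKM. Nbea, 1242 kb before it, had 1.22, 1.16 and 0.798 RPKM. In grown-out cells it was 1.53-fold lower by plain fold. With the pseudocount its log2 ratio was -0.58, just short of the 1.5-fold mark. The clone-named models Gm410 and 4933417G07Rik were at or near 0.

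**Figure D1:**
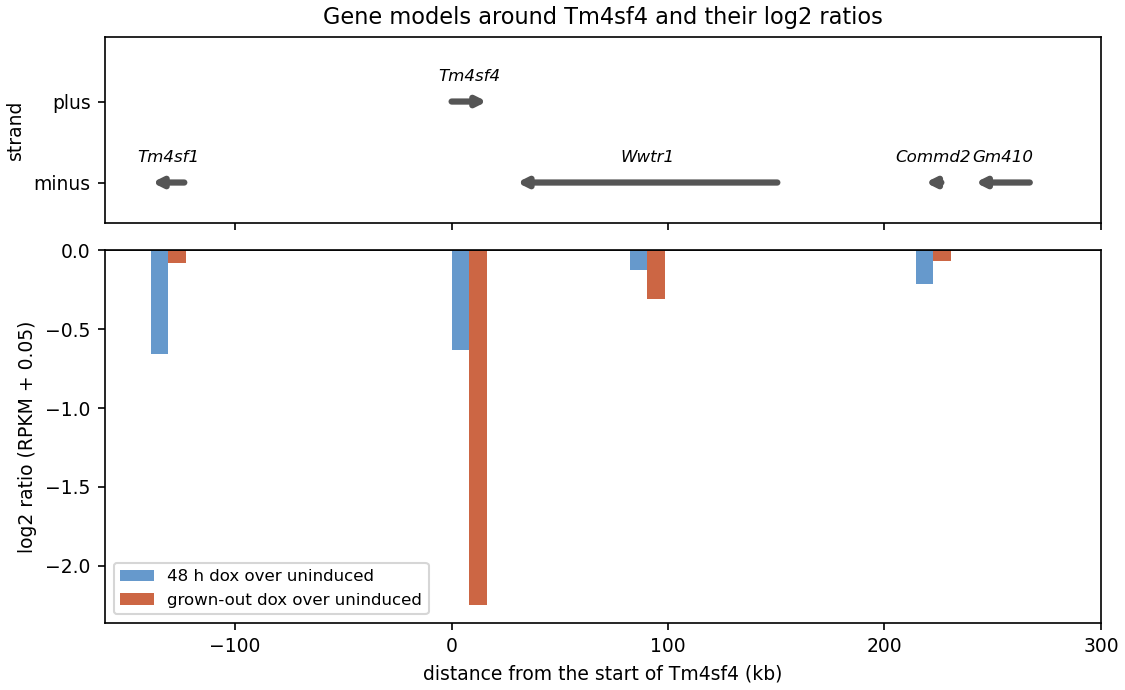
Gene models around Tm4sf4 drawn to scale by strand (top) and the log2 ratio of RPKM + 0.05 of each measured one against the uninduced library (bottom), by distance from the start of Tm4sf4 in kb. Tm4sf4 reaches -2.25 in grown-out cells, while Tm4sf1, Wwtr1 and Commd2 lie between -0.31 and -0.07; Gm410 was not measured and has no bar.

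Muc1, the transmembrane mucin of duct and carcinoma cells, was low at 48 h only. It lies at chromosome 3, 89032974 to 89037291, and had 2.55 RPKM in uninduced (2.34 to 2.77, 561 reads), 1.38 at 48 h (1.23 to 1.55, 289 reads) and 2.38 in grown-out cells (2.161 to 2.62, 428 reads). The uninduced and grown-out intervals overlap, and the 48 h interval lies below both. At 48 h the level was 1.84-fold lower than uninduced (1.60 to 2.13), the largest of the members there. In grown-out cells it was 1.07-fold lower, with an interval that includes no change (0.942 to 1.22).

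Tspan8, a tetraspanin of carcinoma cells and the most transcribed member per length, was lower in both doxycycline libraries. It lies at chromosome 10, 115254340 to 115286949, and had 16.3, 10.5 and 11.9 RPKM on 27051, 16590 and 16102 reads in uninduced, 48 h and grown-out cells. The 48 h level was 1.55-fold lower than uninduced (1.52 to 1.58) and the grown-out level 1.37-fold lower (1.34 to 1.398). Anxa3, which encodes a calcium-dependent phospholipid-binding protein, lies at chromosome 5, 97222404 to 97274987. It had 11.2, 9.33 and 10.7 RPKM on 29938, 23746 and 23335 reads. Anxa3 was 1.20-fold lower at 48 h (1.18 to 1.22) and 1.05-fold lower in grown-out cells (1.03 to 1.07), the narrowest range over the libraries among the measured members. By uninduced level, Tspan8 ranked 162nd, Anxa3 285th and Tm4sf1 307th of 7915 measured genes.

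**Figure D2:**
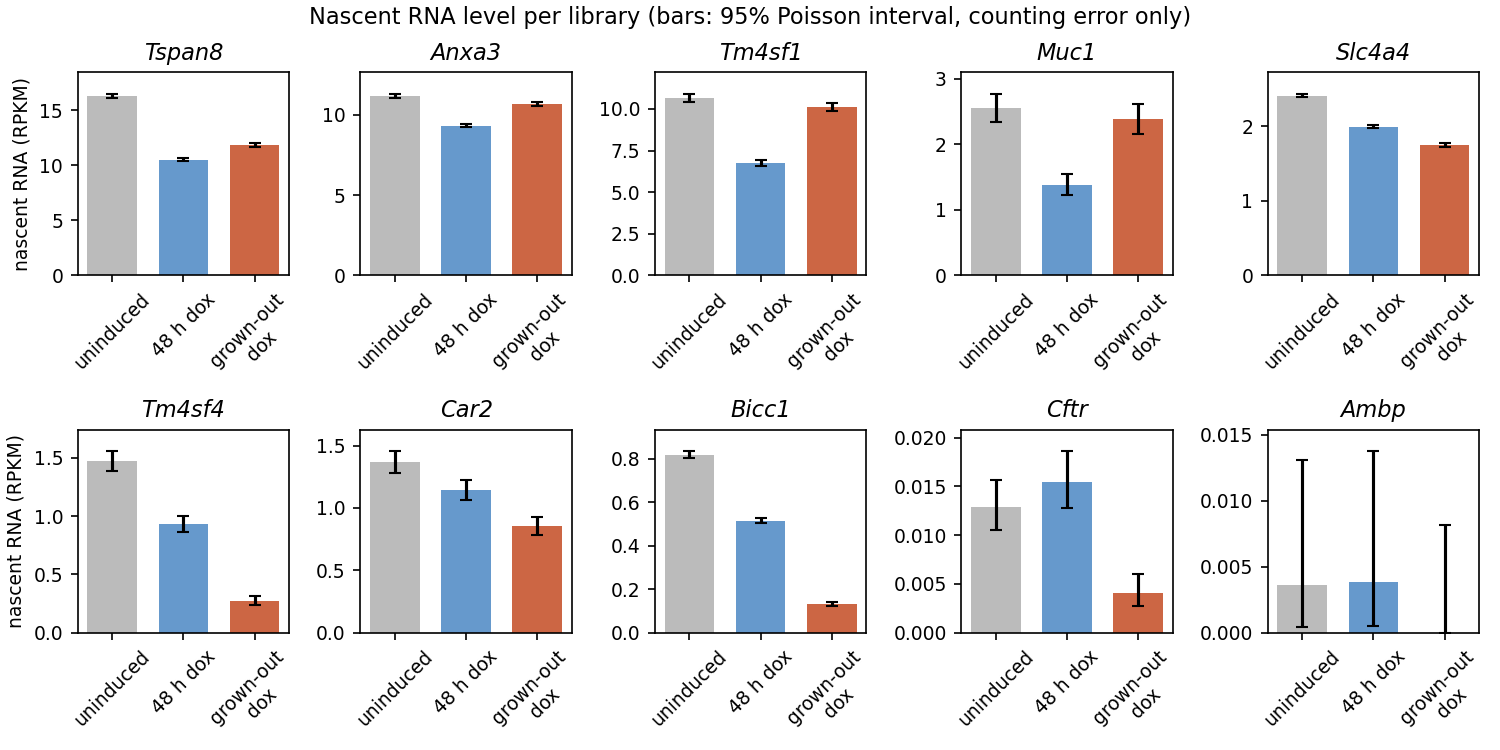
Nascent RNA of the 10 genes in RPKM in the uninduced, 48 h doxycycline and grown-out doxycycline libraries, 1 library each, with 95% Poisson intervals; the vertical scale differs between panels and starts at 0. Tm4sf4, Car2, Slc4a4 and Bicc1 step down across the libraries, whereas Muc1, Tm4sf1 and Anxa3 are lowest at 48 h and near the uninduced level in grown-out cells.

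Both measured transport genes stepped down across the libraries. Car2, which encodes cytosolic carbonic anhydrase, lies at chromosome 3, 14886426 to 14900770. It had 1.37 RPKM in uninduced cells (1.28 to 1.46, 1001 reads), 1.14 at 48 h (1.06 to 1.22, 793 reads) and 0.854 in grown-out cells (0.781 to 0.931, 510 reads). None of these intervals overlap. Car2 was 1.20-fold lower at 48 h (1.09 to 1.32) and 1.60-fold lower in grown-out cells (1.44 to 1.79) than in uninduced cells. Slc4a4, the bicarbonate entry gene, spans chromosome 5, 89316285 to 89668681, and had 2.41, 2.00 and 1.75 RPKM on 43301, 34049 and 25630 reads. It was 1.21-fold (1.19 to 1.22) lower at 48 h and 1.38-fold (1.36 to 1.4005) lower in grown-out cells, on the most reads of any member.

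Cftr, the apical chloride channel that defines duct secretion, had few reads. It spans chromosome 6, 18120687 to 18272769, and had 100 reads in uninduced, 114 at 48 h and 26 in grown-out cells, or 0.0129, 0.0155 and 0.00411 RPKM. The 48 h level was 1.20-fold higher than uninduced with an interval that includes no change (0.910 to 1.59). The grown-out level was 3.14-fold lower (2.02 to 5.04), on a gene far below the expression minimum. Ambp, which encodes the precursor of alpha-1-microglobulin and the Kunitz inhibitor bikunin and is made mainly in liver, lies at chromosome 4, 62804313 to 62815176. It had 2 reads in uninduced, 2 at 48 h and 0 in grown-out cells. With 3 reads taken as the limit that a count of 0 allows, the grown-out level could be up to 0.00663 RPKM, and the 95% Poisson interval drawn in the plot of levels reaches 0.00816 RPKM. No difference was detectable at this depth.

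Bicc1, an RNA-binding protein gene whose loss gives cystic kidneys in mice, had a difference as large as that of Tm4sf4. It spans chromosome 10, 70387848 to 70622382 on the minus strand, and its mean of 0.488 RPKM lies just under the expression minimum although it gathered many reads. Its level was 0.818 RPKM in uninduced cells (0.802 to 0.835, 9791 reads), 0.516 at 48 h (0.503 to 0.529, 5857 reads) and 0.131 in grown-out cells (0.124 to 0.139, 1281 reads). The steps run the same way as those of Tm4sf4, and the intervals do not overlap. At 48 h the level was 1.59-fold lower than uninduced (1.54 to 1.64), in grown-out cells 6.24-fold lower (5.88 to 6.62). With the pseudocount, its log2 ratios were -0.62 at 48 h and -2.26 in grown-out cells, beside -0.63 and -2.25 for Tm4sf4.

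Where a mean of at least 500 reads stood in place of the RPKM minimum, a choice made after its values were seen, Bicc1 ranked 11th and Tm4sf4 15th lowest of 7091 models by plain fold of grown-out over uninduced cells. Of 651 such models of 150 kb or more, which include Bicc1 and Slc4a4, 13.98% were past 1.5-fold lower by plain fold in grown-out cells. Of 3659 models of 10 to 50 kb, which include Tm4sf4, 1.72% were. The share was 4.03% for models under 10 kb and 4.69% for those of 50 to 150 kb. Past 2-fold lower were 7.37% of the models of 150 kb or more and 0.437% of those of 10 to 50 kb. Cftr is also over 150 kb but has fewer reads than this minimum. The part of model length in the values of Bicc1, Slc4a4 and Cftr was not tested. Of the 3 models on each side of Bicc1, also looked up after its values were seen, Tfam and Ube2d1 were measured and neither was past 1.5-fold in grown-out cells. The nearest, the clone-named C730027H18Rik, had 29 reads in uninduced, 19 at 48 h and 8 in grown-out cells, 2.96-fold lower in grown-out than in uninduced cells (1.32 to 7.49). Tfam had 2.46, 2.44 and 2.12 RPKM in uninduced, 48 h and grown-out cells, and Ube2d1 had 1.38, 1.48 and 1.39 RPKM.

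**Figure D3:**
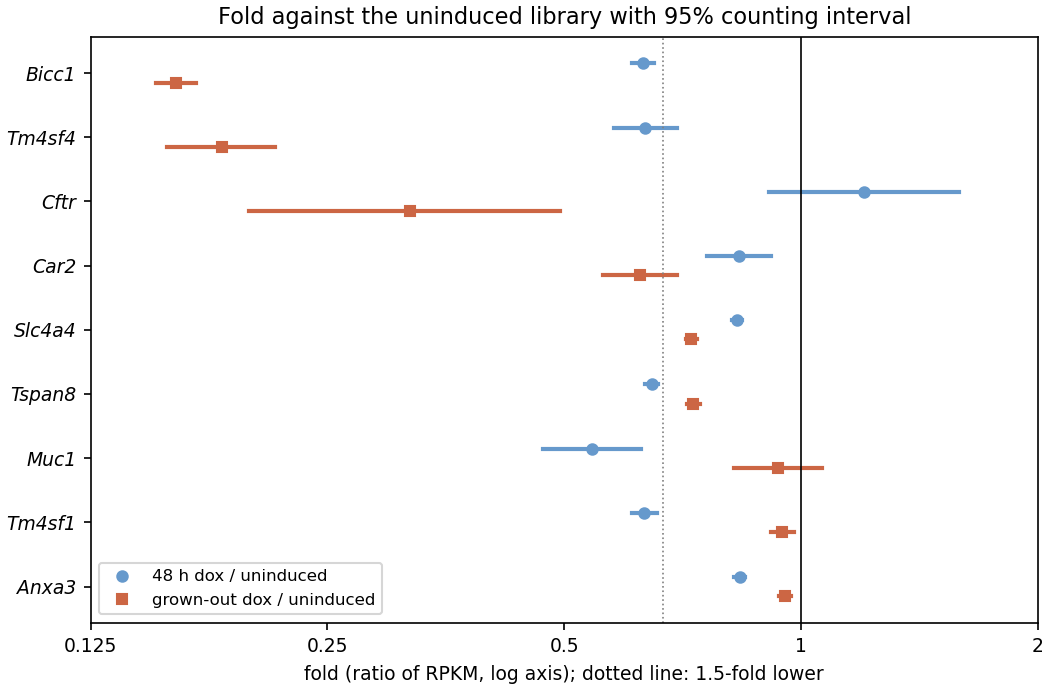
Fold (ratio of RPKM, log axis) of the 48 h and the grown-out doxycycline library against the uninduced library for 9 genes, with 95% conditional binomial intervals that cover counting error only. Ambp is left out for its few reads. Bicc1 and Tm4sf4 stand at 0.160 and 0.184 in grown-out cells, and Muc1 is lowest at 48 h, at 0.543.

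Over all measured members, 4 of 7 were past 1.5-fold lower at 48 h (Muc1, Tm4sf1, Tm4sf4 and Tspan8) and 0 were higher. Past 1.5-fold means that the log2 ratio reached that size and the counting interval excluded no change. Among all measured genes 3.27% were past it lower and 0.379% higher. The members were picked with earlier results known, so this count is a description. Their median log2 ratio was -0.63, beside 0.0029 for all measured genes. All 7 were lower beyond counting error, as were 2372 of the 7915 measured genes. In grown-out against uninduced cells, 2 of 7 were past 1.5-fold lower (Tm4sf4 and Car2) and 0 higher, where 2.93% of measured genes were lower and 1.07% higher. Only Tm4sf4 of the 7 was past 2-fold lower, as were 0.708% of measured genes. The median was -0.45, beside 0.0082 for all measured genes, and Muc1 was the 1 member within counting error. The other 6 were lower beyond it, as were 2331 of the 7915 measured genes.

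Grown-out and 48 h cells were also set against each other, although both had already been compared with the same uninduced library. Tm4sf4 was past 2-fold lower in grown-out cells, as were 0.316% of measured genes, and no other measured member was past 1.5-fold lower, against 2.25% of measured genes. Muc1 was past 1.5-fold higher, at 1.72-fold (1.48 to 2.01), as were 3.59% of measured genes. Tm4sf1, at 1.498-fold higher (1.44 to 1.56), lay just under that mark.

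**Figure D4:**
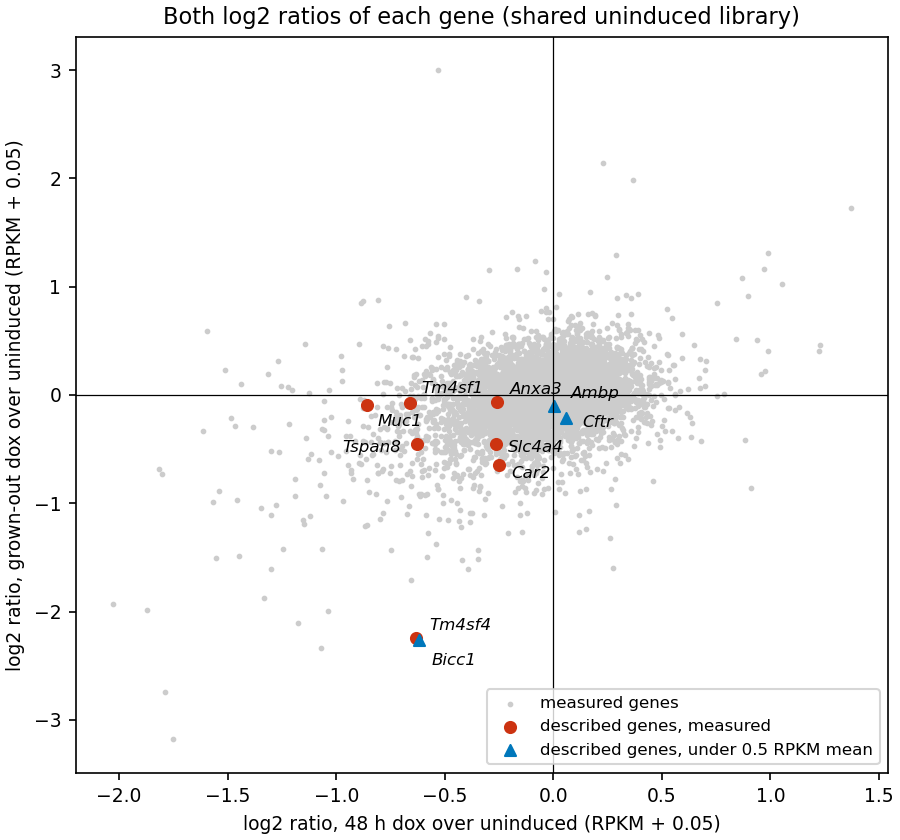
Log2 ratio of grown-out over uninduced (vertical) against 48 h over uninduced (horizontal), both of RPKM + 0.05, for 7915 measured genes (grey) and the 10 genes described. Both axes share the uninduced library. Tm4sf4 and Bicc1 lie together, at -0.63 and -2.25 and at -0.62 and -2.26, apart from the other 8.

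By Euclidean distance between the pairs of log2 ratios, over 7267 measured genes with clone-named and small RNA models left out and 3 libraries, the genes nearest to Tm4sf4 were Btg2 (distance 0.48), Fn1 (0.54), Ly6e (0.56), Lpar6 (0.76) and Pawr (0.76). Bicc1 lay nearer than any of these, at -0.62 and -2.26 beside -0.63 and -2.25 for Tm4sf4. It was not among the genes compared because it was under the expression minimum. Other models under that minimum were not compared, so some could lie as near. By plain fold of grown-out against uninduced cells, without the pseudocount, Bicc1 was 6.24-fold and Tm4sf4 5.45-fold lower. Fn1, the fibronectin gene, had 2.51, 1.57 and 0.731 RPKM in uninduced, 48 h and grown-out cells. The genes nearest to Muc1 were the stress-response gene Ier5 (distance 0.017), Crip1 (0.031) and the interleukin receptor gene Il4ra (0.048). Ier5 had 1.83, 0.979 and 1.70 RPKM.

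Relatives of the members showed different courses. At the same 1.5-fold mark, lower calls made up 3.27% of the 7915 measured genes at 48 h and 2.93% in grown-out cells. Higher calls made up 0.379% and 1.07%. No list of relatives was tested against these shares. The L6 family has 5 genes in the files. Besides Tm4sf1 and Tm4sf4, Tm4sf20 had 41, 6 and 2 reads in uninduced, 48 h and grown-out cells, Tm4sf19 had 34, 34 and 38 reads and Tm4sf5 had 2, 1 and 0. Of 31 tetraspanins 14 were measured. Tspan8 was the 1 past 1.5-fold lower at 48 h, none was higher, and Cd9 had 3.29, 2.25 and 3.28 RPKM. In grown-out cells Tspan2 was 1.73-fold lower (1.57 to 1.92) and Tspan15 1.68-fold higher (1.60 to 1.77). The tetraspanin medians were -0.13 at 48 h and -0.15 in grown-out cells.

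The annexins, Anxa3 among them, had 12 genes in the files. Of the 9 measured, 2 were past 1.5-fold lower at 48 h and 0 higher, with a median log2 ratio of -0.36. Anxa2, a membrane and cytoskeleton linker, was 1.71-fold lower (1.67 to 1.75) and Anxa10 1.83-fold lower (1.72 to 1.96). In grown-out cells 0 were past 1.5-fold lower and Anxa10 was 1.89-fold higher (1.803 to 1.99), with a median of 0.10. Anxa5 had 6.81, 5.10 and 5.22 RPKM. Under the expression minimum, and singled out after their values were seen, Anxa13 had 754, 448 and 162 reads and Anxa6 had 1301, 894 and 421 reads in uninduced, 48 h and grown-out cells. Against uninduced cells, Anxa13 was 3.80-fold lower in grown-out cells (3.20 to 4.53) and Anxa6 2.52-fold lower (2.26 to 2.82). Of the mucins, 8 of 11 were in the files and Muc1 alone was measured, the others having at most 15 reads in any library.

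Of 44 genes of duct ion and fluid transport 26 were measured, with medians of -0.21 at 48 h and 0.04 in grown-out cells. At 48 h 2 were past 1.5-fold lower and 0 higher: Atp1b1, a sodium pump subunit gene, at 2.11-fold (2.00 to 2.23), and Ezr, which encodes the apical linker ezrin, at 1.61-fold (1.57 to 1.65). In grown-out cells Car2 was the 1 past it lower, and 2 were higher: the water channel gene Aqp5 at 1.84-fold (1.63 to 2.09) and the potassium channel gene Kcnn4 at 1.84-fold (1.61 to 2.10). The secretin receptor gene Sctr and the anion exchanger gene Slc26a3 had 0 reads in every library. Under the expression minimum, Aqp1, another water channel gene, and Wnk4 were singled out after their values were seen. Aqp1 had 93, 7 and 36 reads and Wnk4 392, 158 and 315 in uninduced, 48 h and grown-out cells. Aqp1 was 12.6-fold lower than uninduced at 48 h (5.88 to 32.2) and 2.11-fold lower in grown-out cells (1.42 to 3.19). Wnk4 was 2.36-fold lower at 48 h (1.95 to 2.85). Also under it, Stk39 and Slc26a11 were higher at 48 h beyond counting error, but not past 1.5-fold. Of 16 carbonic anhydrases 3 were measured, and Car5b had 0.904, 0.736 and 0.780 RPKM. Of 10 Slc4 genes 3 were measured, and Slc4a2, an anion exchanger, had 0.564, 0.436 and 0.708 RPKM, higher in grown-out cells where Slc4a4 was lower. Of CFTR and the Abcc transporters 3 of 11 were measured and none was past 1.5-fold; Abcc1 had 1.42, 1.39 and 1.83, Abcc4 0.581, 0.617 and 0.652, and Abcc5 1.55, 1.25 and 1.72 RPKM.

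The list of Bicc1 partners and genes of cystic kidney and cilia had 21 genes in the files. Of the 13 measured, 0 were past 1.5-fold at 48 h and 1 was lower in grown-out cells, Glis3, at 2.28-fold (1.90 to 2.75). Its deposited length is 3917 of 417630 bp, so its value covers a small part of the gene. Anks3, a partner of Bicc1, had 0.735, 0.801 and 0.772 RPKM, and Pkhd1, the recessive polycystic kidney gene, 0.960, 0.771 and 0.859 RPKM. Glis2 had 1.47, 1.10 and 1.39 RPKM. The medians were 0.010 and -0.012. Among relatives of Ambp and liver secretory genes 4 of 23 were measured, and Aplp2, a precursor protein with a Kunitz domain, was past 1.5-fold lower at 48 h at 1.51-fold (1.31 to 1.75) and in grown-out cells at 2.20-fold (1.85 to 2.62). Its deposited length is 3694 of 62259 bp. App had 1.43, 1.16 and 1.16 RPKM and Hnf4a 1.15, 0.829 and 1.116 RPKM.

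Of the duct and epithelial identity list, 34 genes were in the files and 18 were measured. Of these, 6 were past 1.5-fold lower at 48 h (Krt19, Onecut2, Spp1, Lgals3, Elf3 and Foxa2) and 2 in grown-out cells, and 0 were higher in either. Spp1, osteopontin, and Foxa1 were the 2 in grown-out cells. Spp1 had 98.6, 40.0 and 32.3 RPKM and Foxa1 0.668, 0.591 and 0.346 RPKM in uninduced, 48 h and grown-out cells. Onecut2 had 3.23, 1.84 and 2.59 RPKM. The deposited length of Krt19 is 1373 of 5108 bp. Pdx1, also on this list, was 1.51-fold lower at 48 h by plain fold, but its log2 ratio of -0.57 fell short of the 1.5-fold mark. The medians were -0.26 and 0.0027.

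**Figure D5:**
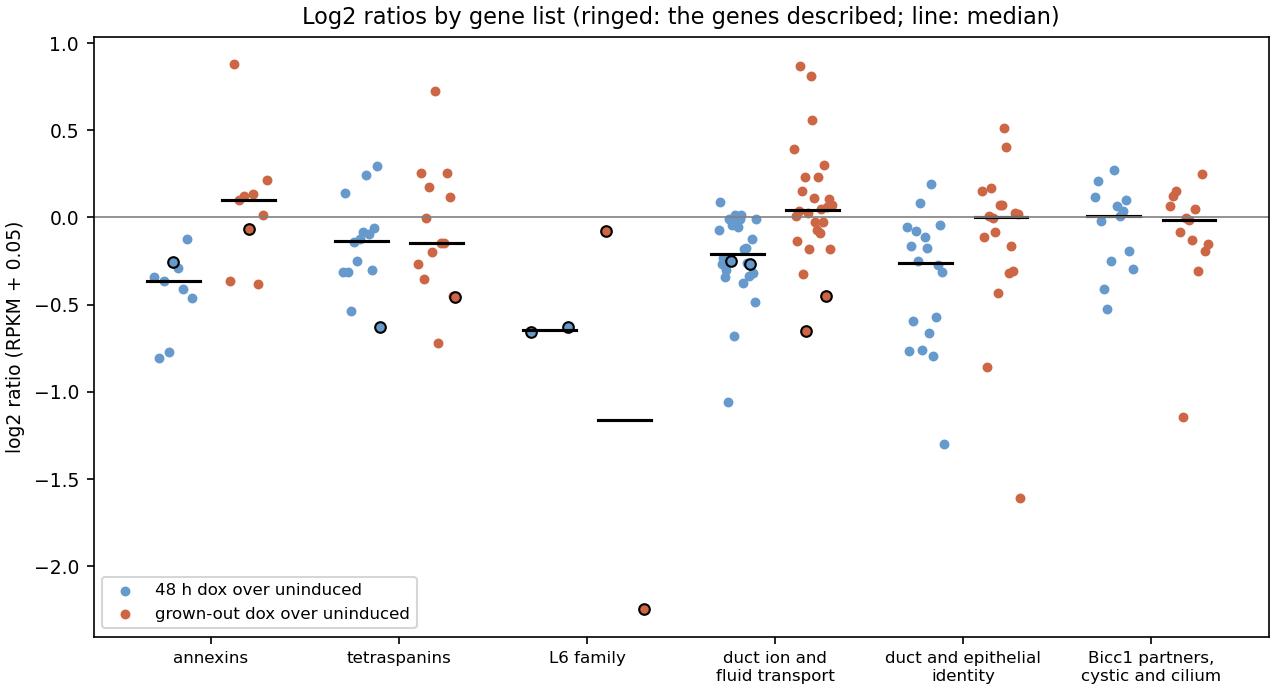
Log2 ratios (RPKM + 0.05) of the measured genes of 6 lists, 48 h over uninduced on the left and grown-out over uninduced on the right of each pair, with the list median as a line and the genes described ringed. Tm4sf4 lies at -2.25 in grown-out cells, below every other point, and Bicc1 is not drawn because it was under the expression minimum.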

How the data were processed

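Nascent RNA was measured in 1 library per condition. Per the submitters' processing notes, bedtools 2.16.2, TopHat 1.4.1, CASAVA 1.8.2 and Bowtie 0.12.8 were used; their settings are unstated. The notes name the human build hg19, while the models carry mouse symbols, so the files' build is unsettled and coordinates are given as in the files. These differ from GRCm38, the build of the promoter stretches. Tm4sf4 starts at 57229332 in the files and at 57425410 in GRCm38. Per the file headers, the deposited estimated counts are reads per whole gene model, introns included, and the deposited RPKM values scale them by model length and library total. For some models, Glis3, Aplp2 and Krt19 among them, the deposited length is shorter than the span. A deposited signal column of reads per base served as an alternative. Models with repeated names or spanning over 3 Mb (138 of 22658) were left out. From these values, log2 ratios of RPKM + 0.05, plain folds with exact conditional binomial 95% intervals and exact Poisson 95% intervals of levels were computed from counts rounded to whole reads (Python 3.11.15, scipy 1.17.1). Reads carry no molecular identifiers, so the intervals may be too narrow. The functions were tested on simulated counts. TMM (edgeR 4.0.16) and DESeq2 1.42.0 were used for scaling factors only. The members, the gene lists and the naming rule were chosen with earlier results of these data known. The rule named the members, up to 2 measured genes per list and comparison with the largest ratio, the 3 nearest models on each side of Tm4sf4, and the 5 and 3 genes most like Tm4sf4 and Muc1. Of the genes this rule names, 1 is not reported here. No member's model overlaps another model.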

Additional observations from a re-analysis of the deposited data

How the results depend on the processing

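Each member kept the sign of its log2 ratio under each alternative that measured it. With a pseudocount of 0.5 RPKM the median of the measured members was -0.46 at 48 h and -0.37 in grown-out against uninduced cells, and 1 member instead of 2 was past 1.5-fold in grown-out cells. At 48 h 3 members instead of 4 were past it, Tm4sf4 falling short with a log2 ratio of -0.46. In grown-out against uninduced cells Tm4sf4 then had -1.36 and stayed past it. In grown-out against 48 h cells it had -0.90, still past 1.5-fold lower but no longer past 2-fold. With no minimum RPKM, so over all 10 genes, the medians were -0.44 at 48 h, -0.33 in grown-out against uninduced and -0.15 in grown-out against 48 h cells, the last against 0.17 for the 7 measured members, since Bicc1, Cftr and Ambp enter. With a minimum mean RPKM of 2, which removes Tm4sf4 and Car2, 0 of 5 members were past 1.5-fold in grown-out against uninduced cells, with a median of -0.095, and 1 in grown-out against 48 h cells. With a mean of at least 500 reads in place of the RPKM minimum, chosen after seeing the data, Bicc1 replaced Muc1 and the median of grown-out against 48 h cells was -0.19. TMM, DESeq2 and gene model totals moved the log2 ratios by at most 0.042, yet under TMM and DESeq2 scaling Tm4sf1 joined Muc1 past 1.5-fold higher in grown-out against 48 h cells. The share of all genes past 1.5-fold under each alternative is not given here, so these member counts have no background beside them. No paired analysis was possible because each condition had 1 library.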
